A study of Mus musculus with 20 samples.

Results

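The genes Irf8, Klf4, Ly6c2, Id2, Tcf4, Batf3, Zeb2, Nr4a1, and Cd14, which direct or mark the choice between monocyte and dendritic cell fates, were described from ChIP-Seq peaks at their loci. The 9 genes are 9 of 21951 protein-coding genes in the annotation. A locus was the gene body with 50 kb on each side, which takes in the known distal enhancers of Irf8, and every peak of the 12 deposited lists that overlapped a locus was included. This gave 72 of 29659 H3K27ac peaks in WT, 63 of 22727 in Ep300Δ/Δ, 45 of 24539 in Tet2-/-, and 38 of 18327 in Ep300Δ/ΔTet2-/- cells. H3K4me1 gave 232, 205, 208, and 210 peaks at the 9 loci, and H3K4me3 gave 54, 52, 65, and 58, in the same order of genotypes.

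The chromatin came from Lin- bone marrow cells, a fraction rich in stem and progenitor cells from which mature blood cells have been depleted by their surface antigens. WT mice were Ep300 fl/fl, Ep300Δ/Δ mice were Mx1-Cre Ep300 fl/fl, Tet2-/- mice were Ep300 fl/fl Tet2-/-, and Ep300Δ/ΔTet2-/- mice were Mx1-Cre Ep300 fl/fl Tet2-/-. All 4 groups were given poly(I:C), an inducer of interferon, which switches on Mx1-Cre, a recombinase gene whose interferon-responsive promoter also acts outside blood cells. All 4 groups therefore also share this injection and the floxed Ep300 alleles, and the Tet2-/- allele needed no induction. Each precipitation took 5 μg of chromatin and 1 μg of antibody. The files hold 1 library for each genotype and mark, so no spread between mice is known, no P values were computed, and every difference below is one between 2 libraries. Peak lists do not give the depth of a library, although greater depth can raise the number of calls. In a bulk population, fewer cells that carry a mark and less of the mark in each cell cannot be told apart.

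Monocytes and dendritic cells arise from shared progenitors. Irf8 encodes a transcription factor needed for both lineages, and its dose is known to favor dendritic cells when high and monocytes when intermediate. Klf4 acts with it toward monocytes, Zeb2 favors monocytes and plasmacytoid dendritic cells, Batf3 and Id2 serve conventional dendritic cells, and Tcf4 directs plasmacytoid dendritic cells. Nr4a1 maintains nonclassical monocytes, Ly6c2 encodes a surface marker of classical monocytes, and Cd14 encodes a coreceptor for lipopolysaccharide. H3K27ac, a mark that p300 (encoded by Ep300) and CBP deposit, lies at active promoters and enhancers. H3K4me1 also marks enhancers that are not active, and H3K4me3 marks most promoters of active or poised genes. Tet2 encodes an enzyme that oxidizes 5-methylcytosine.

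H3K27ac calls at the Irf8 locus were few in both lists without Tet2, and those at Ly6c2 were absent in both lists without Ep300. Over the series, 29.2% of merged H3K27ac regions were called only in lists with Tet2 and 37.1% only in lists with Ep300. The sequences below are from regions with and without these patterns, taken from the GRCm38 assembly, which is also called mm10. The first 5 are from Irf8, whose enhancers near -50, 32, 41, and 56 kb from the start are known from work on dendritic cells and monocytes. Of them, only the regions at -49.7 and 41.4 kb lacked H3K27ac calls in both lists without Tet2, and that at 24.3 kb is shown because it had a call in all 4. The next is the only Nr4a1 region outside promoters with a peak in all 4 H3K27ac lists. Each holds the 151 bases centered on the summit of the H3K27ac peak with the highest fold, on the plus strand. The last holds the 150 bases before the Ly6c2 start, on the minus strand, from the RefSeq promoter table.
Irf8 -49.7 kb, chr8:120686570-120686720: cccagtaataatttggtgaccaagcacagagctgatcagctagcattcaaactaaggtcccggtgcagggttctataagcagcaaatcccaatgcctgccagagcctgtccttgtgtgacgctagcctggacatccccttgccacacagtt
Irf8 24.3 kb, chr8:120760586-120760736: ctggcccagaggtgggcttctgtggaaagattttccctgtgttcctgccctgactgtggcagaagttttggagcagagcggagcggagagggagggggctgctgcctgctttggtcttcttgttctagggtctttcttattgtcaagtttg
Irf8 32.5 kb, chr8:120768798-120768948: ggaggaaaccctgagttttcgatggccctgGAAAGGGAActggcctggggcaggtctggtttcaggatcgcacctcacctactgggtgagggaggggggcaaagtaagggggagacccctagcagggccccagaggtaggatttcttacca
Irf8 41.4 kb, chr8:120777706-120777856: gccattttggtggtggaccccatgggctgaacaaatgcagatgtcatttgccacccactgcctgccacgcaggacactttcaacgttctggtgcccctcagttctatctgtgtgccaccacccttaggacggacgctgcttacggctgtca
Irf8 56.9 kb, chr8:120793148-120793298: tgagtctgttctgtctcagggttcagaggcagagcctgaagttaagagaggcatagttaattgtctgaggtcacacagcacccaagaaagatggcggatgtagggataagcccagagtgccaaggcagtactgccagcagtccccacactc
Nr4a1 -7.5 kb, chr15:101246657-101246807: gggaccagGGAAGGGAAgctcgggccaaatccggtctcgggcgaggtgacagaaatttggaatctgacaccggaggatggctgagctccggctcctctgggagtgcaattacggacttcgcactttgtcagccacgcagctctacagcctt
Ly6c2 promoter, chr15:75111972-75112121: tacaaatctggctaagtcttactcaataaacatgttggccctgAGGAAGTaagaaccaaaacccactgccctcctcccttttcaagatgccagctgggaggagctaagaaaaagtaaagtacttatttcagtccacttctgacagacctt

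Capitals mark matches to 6 motifs searched on both strands: AGGAAGT for PU.1, GAAANNGAA for IRF factors, GGAANNGAA for ETS-IRF pairs, TTGCNNAA for C/EBP factors, TGTGGT for RUNX factors, and TGANTCA for AP-1. The ETS-IRF and IRF motifs share letters and can overlap. The Irf8 32.5-kb window held 1 IRF match, the Nr4a1 window 1 ETS-IRF match, and the Ly6c2 promoter 1 PU.1 match. The other 4 windows held none of these letters, which says nothing about binding elsewhere in the region. Of 14280 H3K27ac regions outside promoters in any list, 3.55% held the IRF motif and 4.79% the ETS-IRF motif in a window of this length. The PU.1 motif was in 5.07% of 32843 promoters. Among the 41 such regions at the 9 loci, the ETS-IRF motif was in 4 (9.76%), RUNX in 3 (7.32%), AP-1 and C/EBP in 2 each (4.88%), IRF in 1 (2.44%), and PU.1 in 0. Over all 14280 regions the RUNX motif was in 12.8%, AP-1 in 4.68%, C/EBP in 4.84%, and PU.1 in 4.92%.

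The Irf8 locus (chr8:120686358-120806694, gene at chr8:120736358-120756694 on the plus strand) held 20 H3K27ac peaks in WT and 21 in Ep300Δ/Δ cells, but 6 in Tet2-/- and 5 in Ep300Δ/ΔTet2-/- cells. They covered 8.95, 10.3, 3.53, and 4.09 kb. Both lists without Tet2 were low, whether or not Ep300 was present. Active enhancers, defined as H3K27ac peaks that overlap H3K4me1 of the same genotype and lie over 3000 bp from any transcript start, numbered 11, 11, 2, and 2. The annotation places the downstream regions in introns of Gm20388, a gene model that runs through Irf8.

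**Figure D1:**
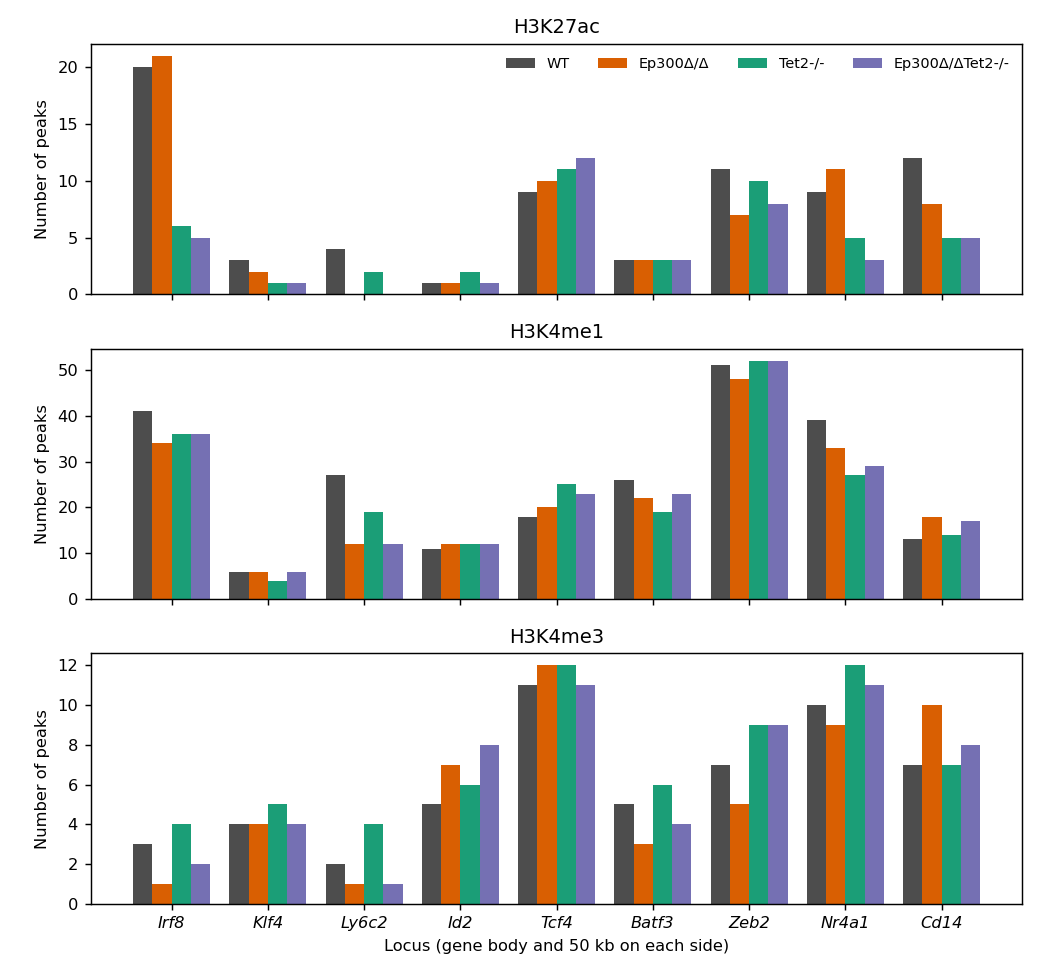
Number of peaks (y axis) at each of the 9 loci (x axis) for H3K27ac, H3K4me1, and H3K4me3, with 1 bar for each genotype from 1 library. At Irf8, H3K27ac stood at 20 and 21 peaks with Tet2 and at 6 and 5 without it, whereas H3K4me1 stood between 34 and 41. At Ly6c2, H3K27ac stood at 0 in both genotypes without Ep300.

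Merging the 4 H3K27ac lists gave 27 regions at Irf8, of which 20 (74.1%) had a peak only in lists with Tet2. Over all 35252 merged regions of the series this share was 29.2%, and over the other 8 loci together it was 22 of 62 (35.5%). Counted in the same way around every protein-coding gene, 6 of 21951 loci, Irf8 included, held 20 or more such regions, and the median locus held 0. Neighboring genes share regions, so these 6 loci are not independent. Only 5 Irf8 regions had a peak in both lists with Tet2 and in neither without it, and 11 coding loci held at least as many. A further 7 of the 27 were called in WT alone, a pattern of 21.1% of regions in the series, and 8 in Ep300Δ/Δ cells alone, a pattern of 3.82%. The strength of the calls limits this result. With all 4 lists cut to the strongest peaks in equal number, Irf8 held 3 peaks in WT, 11 in Ep300Δ/Δ, 2 in Tet2-/-, and 5 in Ep300Δ/ΔTet2-/- cells. Keeping only peaks whose -log10 q reached 5, the counts were 12, 8, 2, and 4. The gap between WT and Tet2-/- cells was thus present under this limit on q and nearly closed in lists of equal size.

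The 5 regions in both WT and Ep300Δ/Δ lay at -38.9, 24.9, 38.1, 41.4, and 47.8 kb from the Irf8 start. The region at 41.4 kb had a 4.09-fold enrichment over H3 in WT and 6.77-fold in Ep300Δ/Δ cells. These folds are the authors' and rank peaks within 1 list, where they stood at the percentiles 14.9 and 57.9. The region at 24.9 kb had 5.51- and 5.53-fold enrichment, at the percentiles 36.6 and 45.5. The region at 38.1 kb had 4.71 and 4.92, that at 47.8 kb had 4.84 and 4.69, and that at -38.9 kb had 4.43 and 3.44. By fold, all 5 ranked below the median peak of the WT list.

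Of the known enhancer positions, that near 56 kb kept a call in 3 genotypes. The region at 56.9 kb (chr8:120792173-120793594) had 6.37-fold enrichment in WT, 4.42 in Ep300Δ/Δ, and 5.20 in Tet2-/- cells, and no peak in Ep300Δ/ΔTet2-/- cells. The region at 32.5 kb (chr8:120768661-120769263), at the element that BATF3 is known to use to sustain Irf8 in dendritic cells, had 4.51 in WT, 2.68 in Ep300Δ/Δ, and 4.09 in Ep300Δ/ΔTet2-/- cells, and no peak in Tet2-/- cells. The region at -49.7 kb was called in WT alone, at 4.43-fold. H3K4me1 overlapped all 3 of these regions in all 4 genotypes. Near 41 kb, regions at 39.0 and 39.6 kb in WT (4.51- and 3.35-fold) and at 40.7 kb in Ep300Δ/Δ cells (4.76-fold) joined that at 41.4 kb, where H3K4me1 was called in Ep300Δ/Δ cells only. Smaller calls stood at 30.2 kb in WT (3.87-fold) and at 55.5 kb in Ep300Δ/Δ cells (3.33-fold). Within the locus, none of the 4 positions had an H3K27ac call in all 4 genotypes. The locus begins at -50 kb, so peaks wholly before that point were not read.

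**Figure D2:**
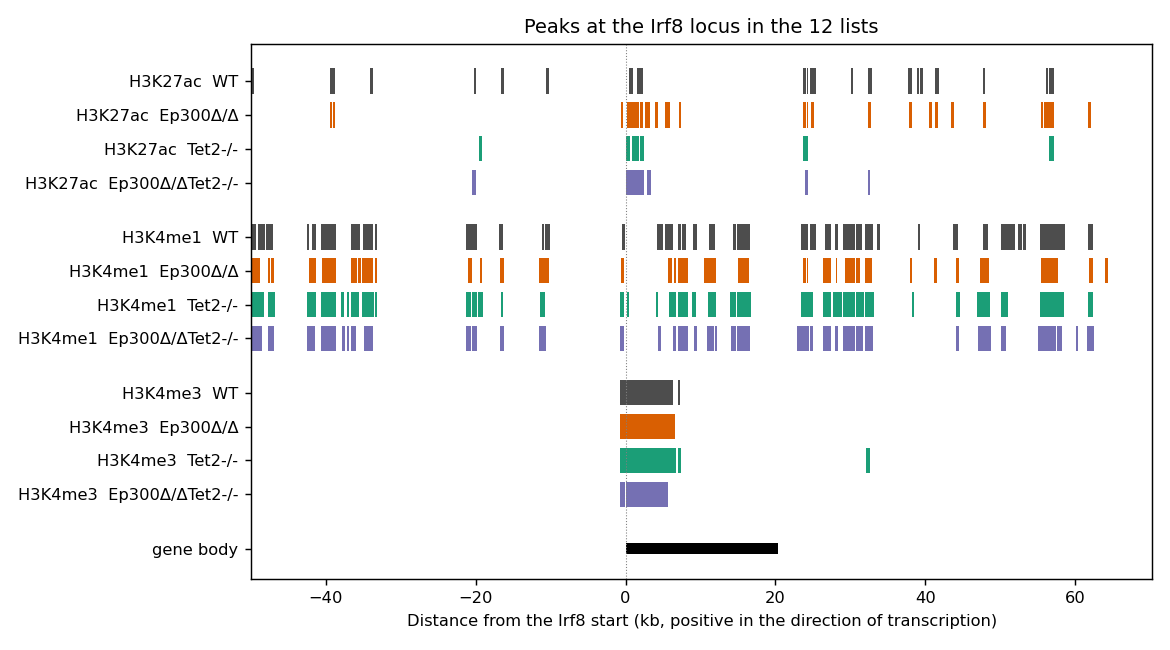
Peaks at the Irf8 locus in the 12 lists by distance from the gene start in kb (x axis), with 1 row for each mark and genotype and the gene body at the bottom. In the H3K27ac rows, calls away from the start are frequent in WT and Ep300Δ/Δ cells and few in Tet2-/- and Ep300Δ/ΔTet2-/- cells. The H3K4me1 rows hold 34 to 41 peaks each, and the H3K4me3 block at the start is present in all 4 genotypes.

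The region with the highest WT fold outside promoters, at 24.3 kb (chr8:120760012-120760759), had a peak in all 4 lists. Its folds were 7.09 in WT, 7.0 in Ep300Δ/Δ, 6.17 in Tet2-/-, and 5.25 in Ep300Δ/ΔTet2-/- cells, at the percentiles 53.4, 59.8, 46.2, and 30.5 of their lists. The Irf8 promoter also had H3K27ac in all 4, with 5.37-, 4.63-, 3.75-, and 6.32-fold enrichment. Ep300Δ/Δ cells had 4 further calls in the promoter regions, from -0.5 to 7.3 kb, that no other list had. At -34.0 kb a region of 5.26-fold was called in WT alone. H3K4me3 covered the start in 1 merged region (chr8:120735570-120743084) with a peak in all 4 lists, at 17.8, 10.2, 22.1, and 23.5-fold.

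H3K4me1 did not follow H3K27ac at Irf8. Its peaks numbered 41 in WT, 34 in Ep300Δ/Δ, 36 in Tet2-/-, and 36 in Ep300Δ/ΔTet2-/- cells, and 24 of 43 merged H3K4me1 regions had a peak in all 4, against 43.9% over the 9 loci and 34.4% over the series. With a -log10 q of at least 5, H3K4me1 peaks numbered 25, 13, 30, and 20 in the same order. In lists of equal size they numbered 37, 34, 33, and 34. Of the 20 regions with H3K27ac only in lists with Tet2, 14 (70.0%) carried H3K4me1 in Tet2-/- and 12 in Ep300Δ/ΔTet2-/- cells. Over the 10292 regions of this kind in the series, the shares were 75.8% and 73.3%.

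The Ly6c2 locus (gene at chr15:75108158-75111970, minus strand) held 4 H3K27ac peaks in WT and 2 in Tet2-/- cells, and 0 in Ep300Δ/Δ and Ep300Δ/ΔTet2-/- cells. All 5 merged regions were thus called only in lists with Ep300, as were 37.1% of regions over the series and 30.3% over the 9 loci. The promoter region (chr15:75111245-75112021) was called in WT alone, at 4.83-fold. A region at -29.7 kb was also called in WT alone (5.44-fold), and 1 at -5.4 kb in Tet2-/- cells alone (6.38-fold). A region at -26.4 kb, at a promoter of I830127L07Rik, had 5.51-fold in WT and 4.01-fold in Tet2-/- cells. H3K4me1 moved with H3K27ac here: peaks numbered 27 in WT and 19 in Tet2-/- cells against 12 in each genotype without Ep300, and covered 15.0 and 14.7 kb against 6.99 and 6.24 kb. Of 19 merged H3K4me1 regions, 5 had a peak in WT and Tet2-/- cells only, a pattern of 5.71% of H3K4me1 regions in the series. These 5 lay at 46.0, -26.8, -27.3, -29.7, and -38.2 kb. H3K4me3 at the start had a peak in all 4, at 29.3, 16, 23.3, and 6.61-fold.

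Ly6c2 has near-identical relatives beside it. Of the 75-base stretches in its gene body, 23.5% occur again within 1 Mb on either side, against 0% to 0.844% at the other 8 genes. Reads from such stretches map to several places and the authors removed reads of low mapping quality, so such stretches can go uncalled. Lists of equal size left 1 H3K27ac peak each in WT and Tet2-/- cells at this locus and 0 in the others.

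Nr4a1 (gene at chr15:101254269-101274795) had no H3K27ac at its own promoters in any list, although H3K4me3 marked them in all 4. The annotation starts the gene 12.6 kb before the start in RefSeq, and distances here are counted from the annotated start. The locus held 9 H3K27ac peaks in WT, 11 in Ep300Δ/Δ, 5 in Tet2-/-, and 3 in Ep300Δ/ΔTet2-/- cells. Upstream stood a row of 4 regions. That at -7.5 kb (chr15:101246584-101247057) had a peak in all 4 lists, with folds of 17.1, 8.46, 9.30, and 6.16 and percentiles of 86.9, 68.7, 67.6, and 42. Beside it, -8.1 kb had 4.99 in WT, 4.64 in Ep300Δ/Δ, and 3.27 in Tet2-/- cells. The region at -9.9 kb had 6.83 in WT and 5.69 in Ep300Δ/Δ cells only, and that at -6.2 kb had 5.48 in WT alone. H3K4me1 overlapped all 4 regions in all 4 genotypes. Between 54.6 and 55.1 kb, 1 region was called in Ep300Δ/Δ cells (3.79-fold) and 1 in WT (3.15-fold). Of 11 merged H3K27ac regions, 6 (54.5%) had a peak only in lists with Tet2, against 29.2% over the series. As many or more were held by 810 of 21951 coding loci (3.69%), a ranking not scaled to the number of regions at a locus. H3K4me1 was present at all 6 in both genotypes without Tet2, as at 67.5% of such regions in the series. In lists of equal size the counts were 7, 10, 4, and 3. The strongest peak of the locus, with folds of 57.5, 30.3, 39.5, and 30.8, belongs to the promoter of the neighbor Atg101.

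At Cd14 (gene at chr18:36725067-36726798, minus strand) the promoter had H3K27ac in WT (4.66-fold), Ep300Δ/Δ (4.02-fold), and Ep300Δ/ΔTet2-/- cells (3.77-fold) and none in Tet2-/- cells. Downstream regions at 6.0 and 7.3 kb, of 10.4- and 8.90-fold, were called in WT alone. That at 6.0 kb stood at the percentile 71.4 of the WT list, and H3K4me1 overlapped both in all 4 genotypes. The region at 18.1 kb had 6.65 in WT, 8.07 in Ep300Δ/Δ, and 10.2 in Ep300Δ/ΔTet2-/- cells, again without a peak in Tet2-/- cells. The region at 27 kb had 6.24 in WT, 3.44 in Ep300Δ/Δ, and 5.77 in Tet2-/- cells. The locus held 12, 8, 5, and 5 H3K27ac peaks, and 6 of its 11 merged regions were at promoters of other coding genes, of which it holds 9. H3K4me3 marked the Cd14 promoter in all 4 genotypes.

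**Figure D3:**
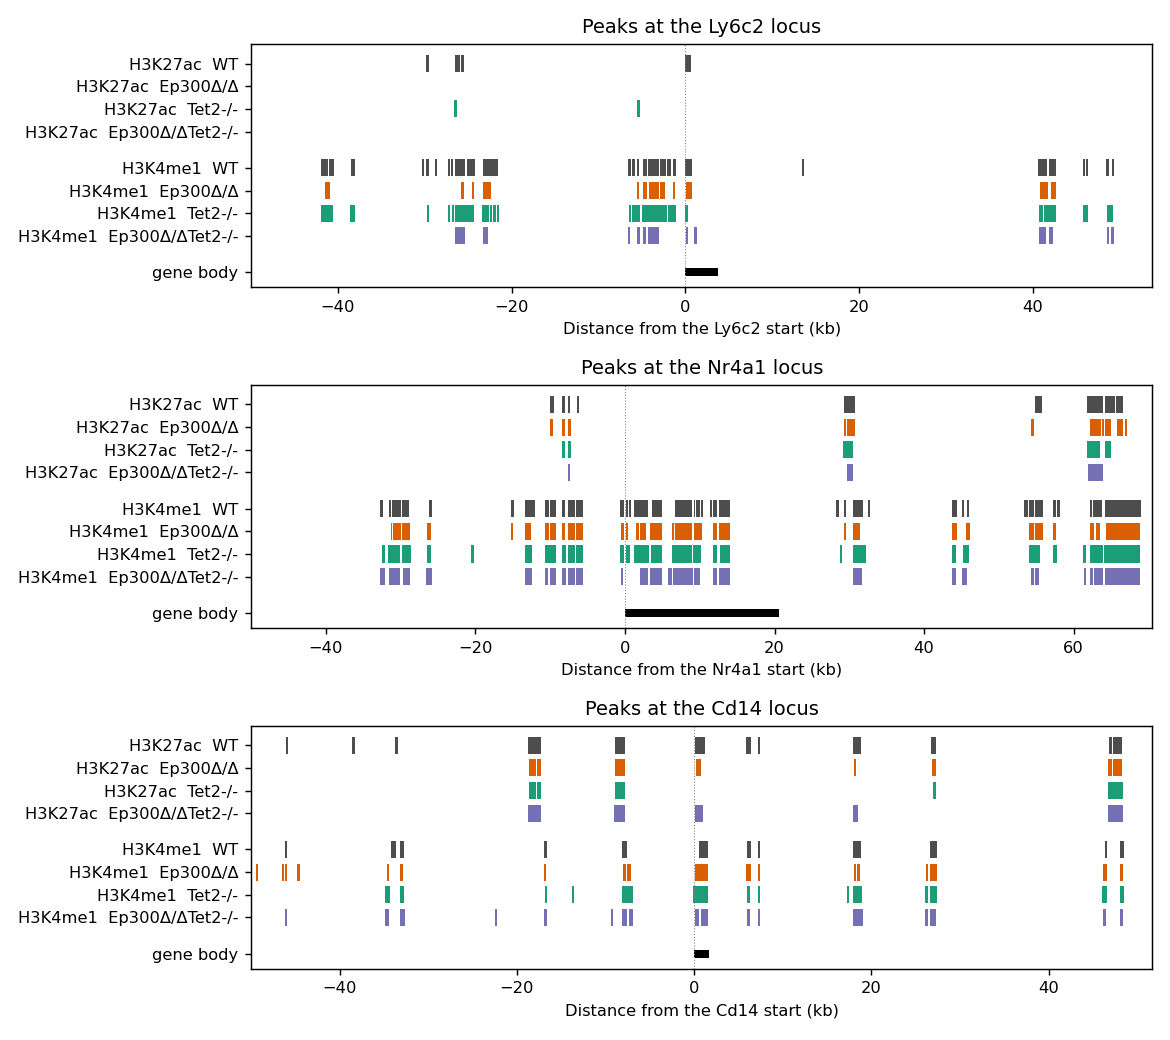
Peaks of H3K27ac and H3K4me1 at the Ly6c2, Nr4a1, and Cd14 loci by distance from each gene start in kb (x axis), with 1 row for each mark and genotype. H3K27ac is absent at Ly6c2 in Ep300Δ/Δ and Ep300Δ/ΔTet2-/- cells. At Nr4a1 the upstream group goes from 4 regions in WT to 1 in Ep300Δ/ΔTet2-/- cells.

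Klf4 (gene at chr4:55527143-55532466, minus strand) kept H3K27ac at its promoter in all 4 genotypes, at 7.93, 9.10, 5.36, and 5.58-fold. Its only H3K27ac region outside promoters, at 42.9 kb, was called in WT alone (4.16-fold), while H3K4me1 and H3K4me3 were present there in all 4. A further H3K4me3 region at 17.5 kb, of 48.5, 47.5, 29.8, and 17.6-fold, had no H3K27ac in any list.

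Among the genes that act in dendritic cells, Batf3 (gene at chr1:191097847-191108945) had no H3K27ac at its promoter in any list, with H3K4me1 and H3K4me3 present in all 4. A region at 13.9 kb was called in WT (3.30-fold) and Ep300Δ/Δ cells (2.98-fold) only, at the percentiles 4.6 and 4.76 of the lists and so near their lower end. A region in an exon of the neighbor Tatdn3, at -42.8 kb, was called in Tet2-/- (7.05-fold) and Ep300Δ/ΔTet2-/- cells (4.33-fold) only. Id2 (gene at chr12:25093799-25097140, minus strand) had H3K27ac at its promoter in all 4 genotypes, but not at the same place. The region over the gene was called in Ep300Δ/Δ (3.44-fold), Tet2-/- (4.62-fold), and Ep300Δ/ΔTet2-/- cells (4.74-fold), and WT had a peak at -2.7 kb instead (4.18-fold). Among peaks whose -log10 q reached 5, neither WT nor Ep300Δ/Δ cells kept an H3K27ac peak at Id2.

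Tcf4 and Zeb2 are the long genes. Tcf4 (gene at chr18:69343356-69689079) held 9, 10, 11, and 12 peaks, and 7 of 15 merged regions had a peak in all 4, against 35.5% of regions in the series. They include the internal promoter at 250.2 kb, with folds of 16.2, 12.7, 16.5, and 19.1. The intronic region at 232.4 kb also had a peak in all 4, at 7.90, 8.81, 7.15, and 7.58-fold. Outside promoters, the calls that differed were at 227.7 kb (5.82 in WT, 4.62 in Tet2-/-, and 7.36 in Ep300Δ/ΔTet2-/- cells), 231.8 kb (Ep300Δ/Δ cells, 5.15), 299.6 kb (Tet2-/- cells, 5.20), and 323.3 kb (all but WT). A further 4 regions at Tcf4 promoters also differed. Zeb2 (gene at chr2:44983632-45117395, minus strand) held 11, 7, 10, and 8 peaks, and 5 of 10 merged regions, all at its promoters, had a peak in all 4. From WT to Ep300Δ/Δ cells, 4 of 9 Zeb2 regions were lost, which is near the 39.7% of the whole list. The region at 7.3 kb had the highest folds of the Zeb2 locus in Ep300Δ/Δ and Tet2-/- cells, 20.6 and 18.3. Within Zeb2 introns, 72.3 kb was called in WT (5.44-fold), 39.5 kb in Ep300Δ/Δ cells (3.82-fold), and 31.6 kb in Tet2-/- cells (4.73-fold). The region at 16.7 kb had 3.94 in WT, 3.67 in Tet2-/-, and 8.66 in Ep300Δ/ΔTet2-/- cells.

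Promoter calls put these loci in the setting of the whole annotation. All 9 genes had H3K4me1 and H3K4me3 at a promoter in all 4 genotypes, as did 53.4% and 60.1% of coding genes. H3K27ac was present in all 4 at Irf8, Klf4, Id2, Tcf4, and Zeb2, in some at Ly6c2 and Cd14, and in none at Batf3 and Nr4a1. Of 21951 coding genes, 8773 had it in all 4, 2295 (10.5%) in some, and 10883 (49.6%) in none. For each of the 5 genes with all 12 calls, 7147 of 21950 other coding genes (32.6%) had the same calls. The same 12 calls as Cd14 were found in 88 of 21950 other coding genes (0.401%), among them Lyz2, encoding lysozyme, and Tlr2, a receptor for bacterial lipoproteins. The calls of Ly6c2 were shared by 188 genes (0.856%), none of them in the lists below. Those of Batf3 and Nr4a1 were shared by 1841 (8.39%), among them Ciita, Irf4, and Pou2f2.

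Among 20 further monocyte and macrophage genes, promoter H3K27ac was present in 16 in WT, 12 in Ep300Δ/Δ, 10 in Tet2-/-, and 9 in Ep300Δ/ΔTet2-/- cells, against 47.3%, 44.9%, 46.4%, and 43.1% of all coding genes. It differed between genotypes at 12 of 20, against 2295 of 21951 coding genes (10.5%). Of genes with a call in at least 1 list, these were 70.6% and 20.7%. Among 19 further dendritic cell genes, it was present in 14, 15, 14, and 11, and differed at 5 (26.3%). From WT to Tet2-/- cells, 7 of 16 calls in the monocyte list and 1 of 14 in the dendritic list were lost, against 6.09% over all coding genes. From WT to Ep300Δ/Δ cells, 4 of 16 and 1 of 14 were lost, against 7.96%. From Tet2-/- to Ep300Δ/ΔTet2-/- cells, 5 of 10 and 3 of 14 were lost, against 10.2%. From Ep300Δ/Δ to Ep300Δ/ΔTet2-/- cells, 5 of 12 and 4 of 15 were lost, against 8.42%. Calls were also gained. In the monocyte list the gains were 0 of 12 from WT to Ep300Δ/Δ cells (against 3.08%), 4 of 9 from Tet2-/- to Ep300Δ/ΔTet2-/- cells (against 3.35%), 1 of 10 from WT to Tet2-/- cells (against 4.15%), and 2 of 9 from Ep300Δ/Δ to Ep300Δ/ΔTet2-/- cells (against 4.48%). In the dendritic list they were 2 of 15, 0 of 11, 1 of 14, and 0 of 11, in the same order. H3K4me3 at the promoters differed at none of the monocyte genes, 19 of which carried it in all 4. Both lists were chosen with earlier results of these data known, and no further limit on q was applied to the promoter calls.

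Of the 17 genes of these lists whose call differed, the 8 with the highest fold are described. None of the rest of the 17 had the first pattern below, a call in all but Ep300Δ/ΔTet2-/- cells. Csf1r, the receptor for macrophage colony-stimulating factor, Cx3cr1, the fractalkine receptor, Egr2, a transcription factor of macrophages, Zbtb46, a factor of conventional dendritic cells, and Itgax, encoding CD11c, had a call in all but Ep300Δ/ΔTet2-/- cells. Csf1r had 7.89-, 5.39-, and 6.24-fold enrichment in WT, Ep300Δ/Δ, and Tet2-/- cells, and Zbtb46 had 14.4, 3.02, and 8.35. Itgam, encoding CD11b, had calls in WT (8.08-fold) and Ep300Δ/Δ cells (4.41-fold) only. Ccr2, the receptor that brings classical monocytes out of the marrow, had calls in WT (7.42-fold) and Ep300Δ/ΔTet2-/- cells (5.20-fold). Tlr2 lacked a call in Tet2-/- cells only, with 4.49 in WT, 6.69 in Ep300Δ/Δ, and 7.92 in Ep300Δ/ΔTet2-/- cells.

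**Figure D4:**
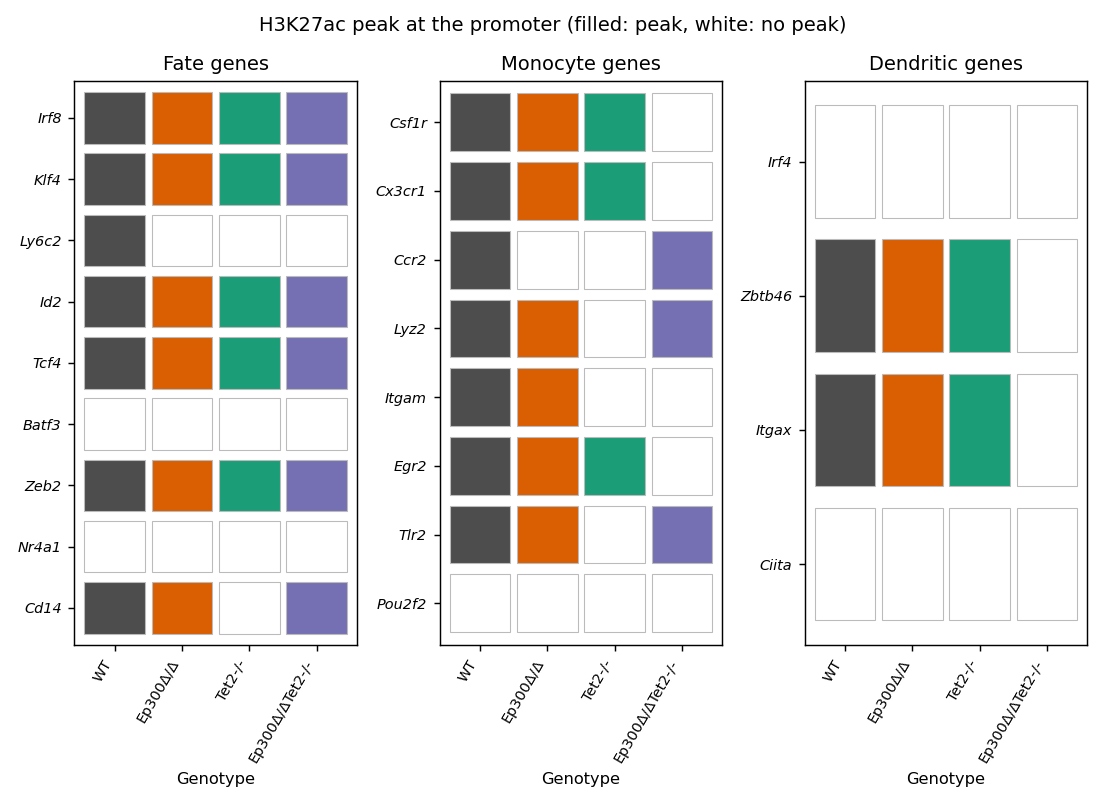
H3K27ac calls at promoters of the 9 fate genes and of 8 monocyte and 4 dendritic genes named in the text (rows) in the 4 genotypes (columns), where a filled box is a peak and a white box is no peak. The monocyte and dendritic genes shown were chosen for calls that differ between genotypes or equal those of a fate gene. Among the fate genes, the calls of Ly6c2 and Cd14 differ between genotypes and Batf3 and Nr4a1 have none.

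Markers of the Lin- population and of the depleted lineages were read in the same way. Promoter H3K27ac was called in all 4 genotypes at Kit, Flt3, Mpo, and Myb, in all but Tet2-/- cells at Cd34, and in all but Ep300Δ/ΔTet2-/- cells at Gata2. The marker Flt3 is also in the dendritic list. Of 6 markers of mature lineages, Cd3e and Cd8a had no promoter peak in any list, and Ms4a1 and Ly6g had H3K4me1 only. In all, 2 of the 6 had promoter H3K27ac in WT, 1 in Ep300Δ/Δ, 0 in Tet2-/-, and 1 in Ep300Δ/ΔTet2-/- cells. Klrb1c had H3K27ac in WT and Ep300Δ/ΔTet2-/- cells. Itgam, a marker of mature myeloid cells, had H3K27ac in WT and Ep300Δ/Δ cells only, the same lists in which the Irf8 locus held most H3K27ac peaks. The part of mature cells in the calls at Irf8 and at the monocyte genes was not tested.

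The 4 comparisons were then summed over the 9 loci. After the peaks of both lists were merged, a region counted as lost where the second list had no peak over it and as gained where the first had none, with 1 bp of overlap sufficing. The 95% intervals are exact Clopper-Pearson intervals, cover only counting error, and treat regions of a locus as independent, which they are not. Each library enters 2 comparisons, so these are not independent.

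For H3K27ac, 37 of 69 regions were lost from WT to Tet2-/- cells (53.6%, interval 41.2 to 65.7), against 35.6% over the whole list. From Ep300Δ/Δ to Ep300Δ/ΔTet2-/- cells 28 of 57 were lost (49.1%, 35.6 to 62.7), against 31.2%. In both, the share of the list lay below the interval. Irf8 alone gave 15 of the 37 and 15 of the 28, and without it the shares were 43.1% and 34.2%. With lists of equal size, the first share was 29.4%, against 22.3% of the list. With deletion of Ep300, 28 of 68 were lost from WT to Ep300Δ/Δ cells (41.2%, 29.4 to 53.8), against 39.7%, and 10 of 39 were lost from Tet2-/- to Ep300Δ/ΔTet2-/- cells (25.6%, 13 to 42.1), against 37.8%. Gains from WT to Ep300Δ/Δ cells stood at 17 of 57 (29.8%, 18.4 to 43.4), against 12.8%. Of these 17, 9 were at Irf8, and with peaks whose -log10 q reached 5 the share was 3.33%, against 4.46%. Gains numbered 9 of 38 from Tet2-/- to Ep300Δ/ΔTet2-/- cells (23.7%), against 15.0%, 9 of 41 from WT to Tet2-/- cells (22.0%), against 20.3%, and 8 of 37 from Ep300Δ/Δ to Ep300Δ/ΔTet2-/- cells (21.6%), against 18.5%.

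Regions that were lost had ranked lower than those retained. From WT to Tet2-/- cells, the 37 lost regions had a median percentile of 24.0 in the WT list and the 32 retained regions one of 63.9. From WT to Ep300Δ/Δ cells these were 23.9 and 54.1. The 17 regions gained there had a median percentile of 16.9 in the Ep300Δ/Δ list.

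Active enhancers at the loci were few. From WT to Tet2-/- cells 18 of 26 were lost (69.2%, 48.2 to 85.7), against 55.2%, and from Ep300Δ/Δ to Ep300Δ/ΔTet2-/- cells 15 of 21 (71.4%, 47.8 to 88.7), against 53.6%. From WT to Ep300Δ/Δ cells 12 of 26 were lost (46.2%), against 63.1%, and from Tet2-/- to Ep300Δ/ΔTet2-/- cells 6 of 12, against 61.7%. Gains were 7 of 21 from WT to Ep300Δ/Δ cells (33.3%), against 25.3%, and 3 of 9 from Tet2-/- to Ep300Δ/ΔTet2-/- cells, against 31.9%. They were 4 of 12 from WT to Tet2-/- cells, against 33.5%, and 3 of 9 from Ep300Δ/Δ to Ep300Δ/ΔTet2-/- cells, against 38.7%. All 4 shares of active enhancers lost at the loci had intervals that took in the share of the list.

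For H3K4me1, all 8 shares lay below those of the list, and in 2 of them, the losses from Tet2-/- to Ep300Δ/ΔTet2-/- and from Ep300Δ/Δ to Ep300Δ/ΔTet2-/- cells, the share of the list lay above the interval. With peaks whose -log10 q reached 5, 4 of the 8 lay above the list instead, among them the losses from Ep300Δ/Δ to Ep300Δ/ΔTet2-/- cells (31.6%, against 25.2%) and the gains from WT to Ep300Δ/Δ cells (26.6%, against 21.5%). The losses were 69 of 219 from WT to Ep300Δ/Δ cells (31.5%), against 36.7%, 48 of 203 from Tet2-/- to Ep300Δ/ΔTet2-/- cells (23.6%), against 31.1%, 48 of 205 from WT to Tet2-/- cells (23.4%), against 28.6%, and 37 of 190 from Ep300Δ/Δ to Ep300Δ/ΔTet2-/- cells (19.5%), against 26.2%. Gains were 40 of 190 from WT to Ep300Δ/Δ cells (21.1%), against 24.1%, 36 of 191 from Tet2-/- to Ep300Δ/ΔTet2-/- cells (18.8%), against 23.4%, 46 of 203 from WT to Tet2-/- cells (22.7%), against 26.8%, and 47 of 200 from Ep300Δ/Δ to Ep300Δ/ΔTet2-/- cells (23.5%), against 29.5%.

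For H3K4me3, losses were 7 of 49 from WT to Ep300Δ/Δ cells (14.3%), against 15.4%, 12 of 65 from Tet2-/- to Ep300Δ/ΔTet2-/- cells (18.5%), against 13.3%, 2 of 53 from WT to Tet2-/- cells (3.77%), against 11.1%, and 4 of 49 from Ep300Δ/Δ to Ep300Δ/ΔTet2-/- cells (8.16%), against 10.3%. Gains were 5 of 47 from WT to Ep300Δ/Δ cells (10.6%), against 11.1%, 2 of 55 from Tet2-/- to Ep300Δ/ΔTet2-/- cells (3.64%), against 9.45%, 12 of 63 from WT to Tet2-/- cells (19.0%), against 13.6%, and 7 of 52 from Ep300Δ/Δ to Ep300Δ/ΔTet2-/- cells (13.5%), against 13.2%. All 8 of these intervals took in the share of the list.

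**Figure D5:**
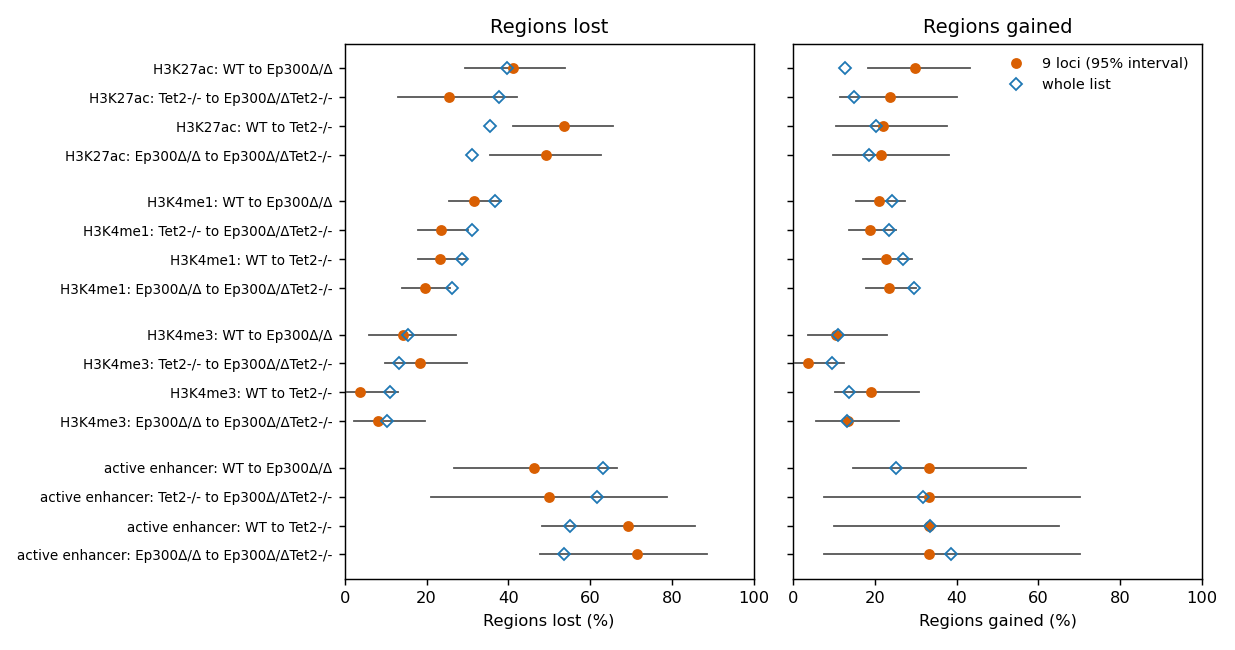
Shares of regions lost (left) and gained (right) in percent (x axis) in the 4 comparisons for each mark and for active enhancers (rows), where filled points are the 9 loci, lines are 95% intervals, and open diamonds are the whole list. The diamonds lie below the lines for H3K27ac lost from WT to Tet2-/- and from Ep300Δ/Δ to Ep300Δ/ΔTet2-/- cells and for H3K27ac gained from WT to Ep300Δ/Δ cells, and above them for H3K4me1 lost from Tet2-/- to Ep300Δ/ΔTet2-/- and from Ep300Δ/Δ to Ep300Δ/ΔTet2-/- cells.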

How the data were processed

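The 12 peak lists came from ChIP-Seq of 3 histone marks in Lin- cells of 4 genotypes, with 1 library each. The 8 further samples, for H3 and H3K27me3, were not analysed here. Groups came from the sample titles, in which H3Kme1 and H3Kme3 were read as H3K4me1 and H3K4me3 from the antibody catalog numbers in the labels and methods. Per the submitters' processing notes and the methods, the authors used cutadapt 1.15 for trimming and BWA 0.7.13 for alignment to mm10, removed duplicates with Picard, filtered on mapping quality and a blacklist, and called peaks with MACS2 2.1.1.20160309 against H3, with pseudo-replicates and a stated q under 0.05. Each list nevertheless holds between 36 and 4372 peaks with q above 0.05. In the H3K27ac lists these numbered 267 in WT, 1630 in Ep300Δ/Δ, 199 in Tet2-/-, and 143 in Ep300Δ/ΔTet2-/- cells. The deposited lists give a fold enrichment over H3, a −log10 P value, a −log10 q value, and a score, which was not used. The authors' fold and −log10 values were read as amounts only within a list, and the highest fold in any list served only to choose the genes named and the summits shown. The number of called peaks can move with depth and yield, which are unknown, and a region just below the threshold counts as absent. The labels call the reads single-end and the methods paired-end, and they give different catalog numbers for the H3 antibody, whose library is the background of each call and fold.

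The members and gene lists were chosen with earlier results of these data known. Genes and transcript starts were from GENCODE M21. Promoters were 3000 bp on either side of a start. A percentile is the share of peaks in the same list with a lower fold. The text names all 9 genes, their promoter calls, the H3K27ac region outside promoters with the highest WT fold, and up to 6 such regions lost or gained. It also names the Irf8 regions within 2 kb of known enhancers, as far as they overlap the locus. Of the other lists, it names the 8 genes with the highest fold among those whose promoter H3K27ac differed. It adds genes that shared a pattern with a member. Other regions of Irf8, Klf4, Ly6c2, and Nr4a1, Zeb2 far upstream, and the counts by Tet2 state were chosen after their values were seen. Alternatives varied locus width, overlap, q, list size, and promoter width. Lost and gained counts equaled the planted numbers and those of bedtools 2.31.1 in 16 of 16 simulated comparisons, and those of bedtools in 24 of 24 comparisons of the lists. Python 3.11.15, numpy 2.4.6, scipy 1.17.1, pysam 0.24.0, and matplotlib 3.10.9 were used. A few genes of the lists are not reported here.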

Additional observations from a re-analysis of the deposited data

Results flagged for a closer look

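At a few regions of the 9 loci the calls changed in opposite directions when Ep300 was deleted with and without Tet2, being called in WT and Ep300Δ/ΔTet2-/- cells only or in Ep300Δ/Δ and Tet2-/- cells only. This difference was not tested, since each group is 1 library. For H3K27ac there were 3 such regions of 89 (3.37%, against 2.29% over the series), at -20.3 kb of Irf8, 72.4 kb of Tcf4, and 61.1 kb of Zeb2, each called in WT and Ep300Δ/ΔTet2-/- cells. For H3K4me1 there were 9 of 278 (3.24%, against 4.18%), 4 of them called in WT and Ep300Δ/ΔTet2-/- cells and 5 in the other pair. For H3K4me3 there was 1 of 65 (1.54%, against 1.58%), at 231.9 kb of Tcf4.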

How the results depend on the processing

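Shares lost and gained were recomputed in 7 alternatives, which gave 200 values, of which 178 stayed within the 95% interval of the reported share and 22 did not. Widths of 20 kb and 100 kb, an overlap of at least 50% of the shorter peak, and promoters of 1000 bp moved none out of it. Shares of the whole list in the same setting stand in parentheses. With lists of equal size, H3K27ac lost was 17.6% (24.1%) from WT to Ep300Δ/Δ and 29.4% (22.3%) from WT to Tet2-/- cells. With a -log10 q of at least 5, H3K27ac gained from WT to Ep300Δ/Δ cells was 3.33% (4.46%) and lost from Ep300Δ/Δ to Ep300Δ/ΔTet2-/- cells 26.7% (16.4%). Active enhancers lost were then 76.5% (76.6%) from WT to Ep300Δ/Δ and 20% (35.2%) from Ep300Δ/Δ to Ep300Δ/ΔTet2-/- cells. H3K4me1 lost was then 49.6% (51.0%) from WT to Ep300Δ/Δ, 40.9% (44.1%) from Tet2-/- to Ep300Δ/ΔTet2-/-, and 31.6% (25.2%) from Ep300Δ/Δ to Ep300Δ/ΔTet2-/- cells, and gained 12.6% (18.3%) from Tet2-/- to Ep300Δ/ΔTet2-/-, 39.2% (37.3%) from WT to Tet2-/-, and 44.9% (43.5%) from Ep300Δ/Δ to Ep300Δ/ΔTet2-/- cells. With peaks within 500 bp counted, H3K4me1 lost was 21% (25.1%) from WT to Ep300Δ/Δ, 16.3% (21.3%) from Tet2-/- to Ep300Δ/ΔTet2-/-, 15.1% (18.7%) from WT to Tet2-/-, and 12.1% (17%) from Ep300Δ/Δ to Ep300Δ/ΔTet2-/- cells, and gained 12.1% (15.8%), 13.1% (15.9%), 12.8% (18%), and 15.5% (20.1%). H3K4me3 gained from Tet2-/- to Ep300Δ/ΔTet2-/- cells was 0% in both of these last settings (5.02% and 6.5%). The cause was not tested. Added after seeing the data, peak counts at Irf8 were 12 in WT, 8 in Ep300Δ/Δ, and 2 in Tet2-/- cells with a -log10 q of at least 5, and 3, 11, and 2 with lists of equal size. At Nr4a1 the count in Ep300Δ/Δ cells was 6 with that q. No paired analysis was possible because each genotype and mark has 1 library, which also leaves no library to leave out.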

Other observations

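Beyond the 50 kb around Zeb2, the position 165 kb before its start, where an enhancer active in myeloid progenitors is known, was also read. An H3K27ac region at -163.0 kb (chr2:45279958-45280782) had a peak in all 4 lists, with folds of 13.7 in WT, 5.82 in Ep300Δ/Δ, 6.15 in Tet2-/-, and 6.05 in Ep300Δ/ΔTet2-/- cells. H3K4me1 was called beneath it in all 4, at 7.40, 7.32, 8.35, and 7.57-fold. This region was chosen after its values were seen.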
